A study of Mus musculus with 24 samples.

Results

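The tripartite motif (Trim) genes encode a large family of ubiquitin ligases, and their mRNA levels were followed in B16F10 cells, a mouse melanoma cell line, across 4 genotypes and 2 treatments. Members were taken by name and level: a gene symbol of Trim followed by digits and an optional letter, with a mean of at least 0.5 counts per 1000000 (CPM) over the 24 libraries. Of 46 such symbols among 15738 named genes, 40 reached that level, and all 40 were tested. The last inside the limit were Trim10 at 0.557 CPM and Trim67 at 0.623 CPM, and the first outside it were Trim17 at 0.246 CPM and Trim50 at 0.212 CPM. Trim29, Trim38, Trim66 and Trim75 also lay below it. The cells carried a control knockout (genotype labelled WT), an Rnf31 knockout, an Atg5 knockout or a knockout of both genes, called the double knockout here. Rnf31 encodes the catalytic subunit of the linear ubiquitin ligase complex, and Atg5 a protein that autophagosome formation depends on. Cells of each line were given vehicle or 2 ng/ml of the cytokine TNFα for 24 h, and each of the 8 groups had 3 libraries, stated in the labels to be biological replicates. The sources used here do not say whether a line was 1 clone or a pool, and a difference between lines that does not come from the targeted gene cannot be told apart from the knockout. In bulk RNA, a change in the number of cells that express a gene and a change in RNA per cell cannot be told apart either.

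Most Trim proteins have a RING domain that passes ubiquitin from an E2 enzyme to a substrate, followed by B-box zinc fingers and a coiled coil, and they differ in what follows at the carboxy terminus. Trim14, Trim16 and Trim44 lack the RING. Many members that end in a PRY-SPRY domain act in antiviral defence, and several of their genes are induced by interferon. Members with a PHD finger and bromodomain, such as Trim28, act on chromatin, and those with NHL repeats bind RNA or protein targets.

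The totals of named genes ran from 19425795 to 33385502 counts per library, and the 40 members together took 0.123% to 0.162% of them. The 7 melanocyte markers listed had group means from 354.7 CPM for Mitf to 7575 CPM for Tyrp1, and of the markers of other cell types 3 were analysed here, none above 8.68 CPM in any group. Atg5 mRNA stood at 54.7 ± 6.26 CPM (SD, n = 3) in control vehicle libraries and 22.2 ± 2.35 CPM in Atg5 knockout vehicle libraries. Rnf31 mRNA stood at 9.79 ± 1.08 CPM in control, 8.04 ± 0.421 in Rnf31 knockout and 6.62 ± 0.222 in double knockout vehicle libraries. Transcript of Rnf31 thus remained in the Rnf31 and double knockouts, and transcript of Atg5 in the Atg5 knockout. Control vehicle replicate 2 stood apart. A chi-square per degree of freedom comparing it with its 2 partners was 19.5 and 31, against 3.11 to 8.67 in the other pairs. Its deviation from the mean of all 24 libraries trended with transcript length over 1.44 log2 units. The other 2 control vehicle libraries had trends of 0.635 and 0.798, and no library of another group exceeded 0.773. Calls that ended without control vehicle replicate 2 are named beside the genes below.

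With vehicle, 22 members were higher and 6 lower in Atg5 knockout than in control cells at a Benjamini-Hochberg adjusted p under 0.05 in edgeR's quasi-likelihood test. That is 70% of the members, where 62% of all 13527 genes tested were called, 31.3% higher and 30.7% lower. Of the 22, 13 were more than 2-fold higher, while no member was more than 2-fold lower. The share of all genes beyond 2-fold was not counted, so nothing about the family is read from the 2-fold counts here. In double knockout cells 15 members were higher and 5 lower than in control, or 50% of the members against 52.4% of all genes (25.3% higher, 27.2% lower). In Rnf31 knockout cells 11 were higher and 2 lower, or 32.5% against 45.6% of all genes (24.1% higher, 21.5% lower). The share of members called was near or below the background in the double and Rnf31 knockouts. Of the 40 members, 5 reached the level limit only through their Atg5 and double knockout libraries and so had to be high there. Nothing is therefore read from the balance of higher and lower members. Without those 5, Atg5 knockout had 17 higher and 6 lower of 35 members, 8 of them more than 2-fold higher, and a median log2 difference of 0.16, beside 0.01 over all genes. Double knockout then had 10 higher and 5 lower, with a median of 0.19, beside −0.01 over all genes. These 3 comparisons share the control vehicle libraries. Without control vehicle replicate 2, the calls among the 40 were 20 higher and 7 lower in Atg5 knockout, 15 and 5 in double knockout, and 9 and 1 in Rnf31 knockout cells.

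**Figure D1:**
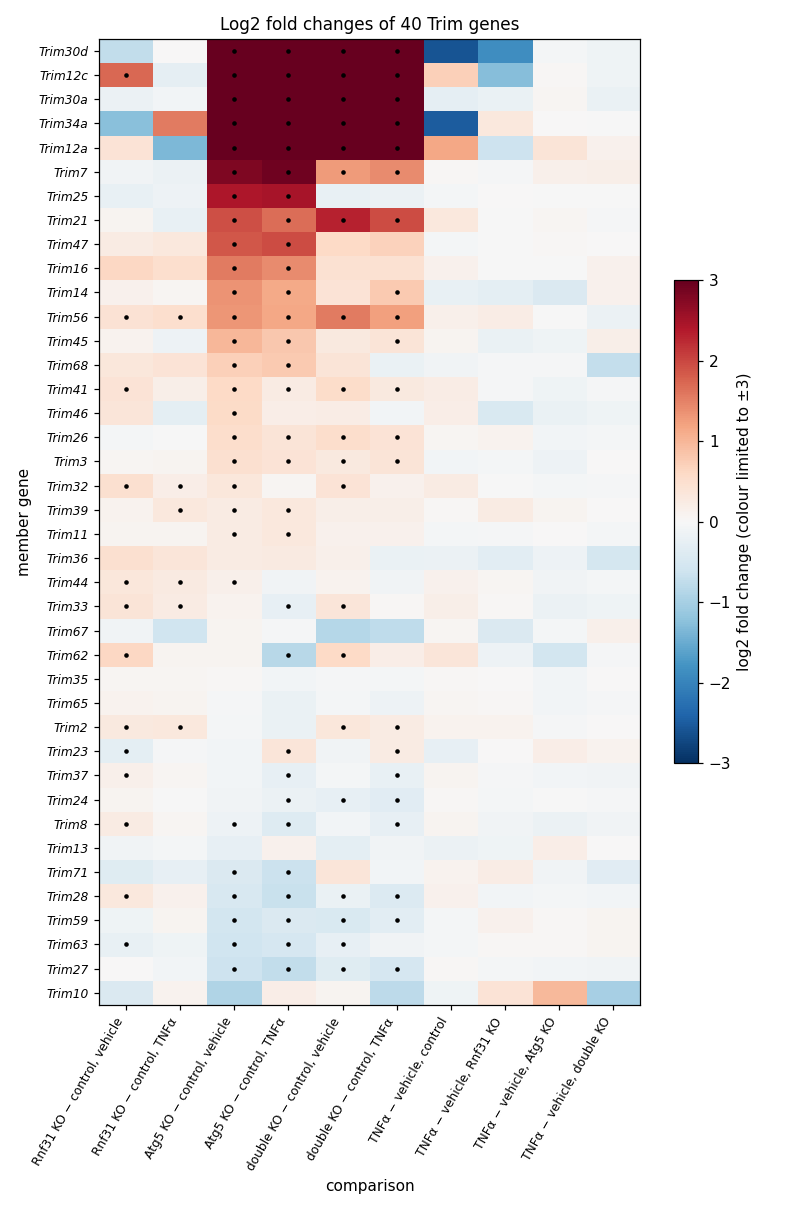
Log2 difference of each of the 40 members (rows, ordered by the Atg5 knockout value) in each comparison (columns), with colour limited at ±3 and a black dot where edgeR's adjusted p was under 0.05. The knockout columns hold most of the dots, and the 4 columns of the TNFα response within a genotype hold none.

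The largest fold differences from control in Atg5 and double knockout cells belonged to a run of neighbouring PRY-SPRY genes on chromosome 7. These genes passed the level limit only through their Atg5 and double knockout libraries. Trim34a, Trim12a, Trim12c, Trim30a and Trim30d lie within chr7:104244457-104507849 (GRCm38, GENCODE annotation), a stretch of 263393 bases. This locus is the mouse counterpart of the region that holds the retrovirus restriction factor TRIM5 in primates. Stretches around their transcription starts (RefSeq, GRCm38.p6) are shown because each holds a match to the core of the interferon-stimulated response element, searched as GAAA, any 2 bases and GAAA, on one strand or the other. Capitals mark the match. Trim21, at chr7:102557921-102565486 on the same chromosome, and Trim26 on chromosome 17 held 2 overlapping matches each.
Trim34a, chr7:104244427-104244486, plus strand: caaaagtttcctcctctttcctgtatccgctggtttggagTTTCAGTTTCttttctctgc
Trim12a, chr7:104315466-104315525, minus strand: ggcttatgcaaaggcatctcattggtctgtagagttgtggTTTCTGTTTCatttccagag
Trim12c, chr7:104353359-104353418, minus strand: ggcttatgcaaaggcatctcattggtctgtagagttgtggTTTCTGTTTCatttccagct
Trim30a, chr7:104465210-104465269, minus strand: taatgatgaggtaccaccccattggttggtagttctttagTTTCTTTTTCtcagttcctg
Trim30d, chr7:104507871-104507930, minus strand: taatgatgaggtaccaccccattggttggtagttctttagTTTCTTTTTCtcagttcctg
Trim21, chr7:102565453-102565509, minus strand: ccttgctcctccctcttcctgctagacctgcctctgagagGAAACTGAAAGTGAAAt
Trim26, chr17:36836946-36837011, plus strand: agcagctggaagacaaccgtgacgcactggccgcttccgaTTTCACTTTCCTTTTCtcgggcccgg

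The match lay 36 bases before the start in Trim30a, 41 before it in Trim30d, 29 before it in Trim12c and 160 before it in Trim26. In Trim12a and Trim34a it lay 10 bases past the start, and in Trim21 13 bases past it. Trim30a has a second RefSeq start, with a match 2 bases past it, and the bases around that match were identical to those around the printed one at 64 of 88 positions. The stretches around the printed Trim30a and Trim30d matches were identical at 89 of 90 aligned bases, and those of Trim12a and Trim12c at 77 of 80, so these pairs are not independent examples. Of the 31 members with a RefSeq promoter window of 300 bases (250 before the start and 50 after it), 8 held the response element core on either strand, or 25.8%, against 3.99% of 27025 genes in the same table. The eighth was Trim2, whose level is given below with the NHL genes. The 5 genes of the run are the members that passed the level limit only through Atg5 and double knockout libraries, and without them the share was 3 of 26, or 11.5%. The interferon gamma site TTCNNNGAA (both strands) was found in 2 of the 31, Trim45 and Trim46 (6.45% against 9.55% of genes), and the NF-kB site, searched as GGG, any 2 bases and TTTCC on both strands, in 0 of 31 (against 1.89%). The other 9 members had no entry. A match is a string of letters and was not tested for binding.

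All 5 genes of the chromosome 7 run were near 0 in control and Rnf31 knockout cells and present in every Atg5 and double knockout library. Trim30a stood at 0.303, 0.127 and 0.536 CPM in the control vehicle libraries, 0.161, 0.190 and 0.435 in Rnf31 knockout, 27.8, 29 and 28.9 in Atg5 knockout and 60.1, 53.3 and 58.4 in double knockout. Trim30a is an interferon-induced ligase known as a brake on NF-kB signalling. With TNFα, Trim30a stood at 0.0803, 0.624 and 0.127 CPM in the control libraries, 0.451, 0.124 and 0.153 in Rnf31 knockout, 27.5, 32 and 28.9 in Atg5 knockout and 54.1, 44.5 and 51.6 in double knockout. Trim30a was highest in the double knockout, where all 6 libraries lay above all 6 Atg5 knockout libraries, and the 12 libraries of the other genotypes stayed below 1 CPM. Because the 3 control vehicle libraries held few Trim30a counts, its ratio was taken from summed counts: 92.2-fold (95% counting interval 63.2 to 140.2) in Atg5 knockout and 185-fold (95% counting interval 127 to 281) in double knockout cells. This interval, and the others like it, covers counting error only. Without control vehicle replicate 2 the ratios were 69.2 and 138.7. The double knockout exceeded the Atg5 knockout by 1.004 ± 0.12 (SE; edgeR adjusted p = 1.87e-07) on the log2 scale with vehicle and by 0.76 ± 0.12 (SE; edgeR adjusted p = 1.85e-05) with TNFα. Per kilobase of its longest transcript, Trim30a ranked 35 of 40 members in control vehicle cells, 16 in Atg5 knockout and 7 in double knockout cells.

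Trim12c stood at 0.168, 0.0317 and 0.0765 CPM in the control vehicle libraries, 0.282, 0.341 and 0.311 in Rnf31 knockout, 9.24, 8.61 and 10.1 in Atg5 knockout and 8.90, 9.08 and 10.8 in double knockout. Trim12c is a relative of TRIM5. The Atg5 and double knockout values of Trim12c overlapped each other and stood far above the rest. By summed counts, Trim12c was 101-fold (95% counting interval 51.1 to 235) higher in Atg5 knockout and 105-fold (95% counting interval 52.9 to 244) higher in double knockout cells. Without control replicate 1 the Trim12c control counts were 3, and the ratios were 178 (60.7 to 865) and 184 (62.9 to 896). Trim34a stood at 0, 0.0317 and 0.268 CPM in the control vehicle libraries, 0.0403, 0 and 0.0622 in Rnf31 knockout, 5.78, 6.64 and 6.11 in Atg5 knockout and 7.72, 5.49 and 7.34 in double knockout. Control replicate 3 held nearly all the Trim34a counts of its group, and the Atg5 and double knockout groups again overlapped. The Trim34a ratio was 67.3-fold (95% counting interval 33.9 to 157) for Atg5 knockout and 74.5-fold (95% counting interval 37.5 to 173) for double knockout cells. With control replicate 3 left out, 1 control count of Trim34a remained, and the ratios were 377 (67.4 to 14930) and 417 (74.6 to 16520). With control replicate 1 left out they were 44.4 and 49.1.

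Trim12a stood at 0.202, 0.0317 and 0 CPM in the control vehicle libraries, 0.121, 0.0379 and 0.155 in Rnf31 knockout, 1.62, 1.71 and 2.58 in Atg5 knockout and 2.93, 2.04 and 2.15 in double knockout. Its ratio to control was 24.1-fold (95% counting interval 11.5 to 60.9) in Atg5 knockout and 29.5-fold (95% counting interval 14 to 74.2) in double knockout cells, with overlapping knockout groups. Control replicate 1 held 6 of the 7 control counts of Trim12a, and without it the ratios were 111.5 (19.8 to 4430) and 136.1 (24.1 to 5402). Trim30d stood at 0.0337, 0.0317 and 0 CPM in the control vehicle libraries, 0, 0 and 0.0311 in Rnf31 knockout, 3.36, 2.95 and 2.24 in Atg5 knockout and 4.08, 4.35 and 5.01 in double knockout. Trim30d was the rarest of the run in control cells, with 2 counts over the 3 vehicle libraries and 0 over the 3 TNFα libraries. The ratio to control with vehicle was 126-fold (95% counting interval 34.6 to 1048) in Atg5 knockout and 196-fold (95% counting interval 53.8 to 1623) in double knockout cells. With TNFα, taking 3 counts over the control group as the floor, Trim30d was at least 73.2-fold higher in Atg5 knockout and at least 109-fold higher in double knockout cells. Trim30d was above the Atg5 knockout in the double knockout by 0.65 ± 0.23 (SE; edgeR adjusted p = 0.0322), a call lost in 4 of the 32 alternative settings. These 5 genes passed the level limit only through their Atg5 and double knockout libraries, since each averaged under 0.5 CPM over the control and Rnf31 knockout libraries. Reads of near-identical copies were divided among them by the authors' counting: 41.3% of the 50-base words of Trim34a also occur in Trim34b, 28% of those of Trim12c in Trim5 or Trim12a, and 6.53% of those of Trim30a in Trim30d. Trim5 and Trim34b are not analysed here.

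**Figure D2:**
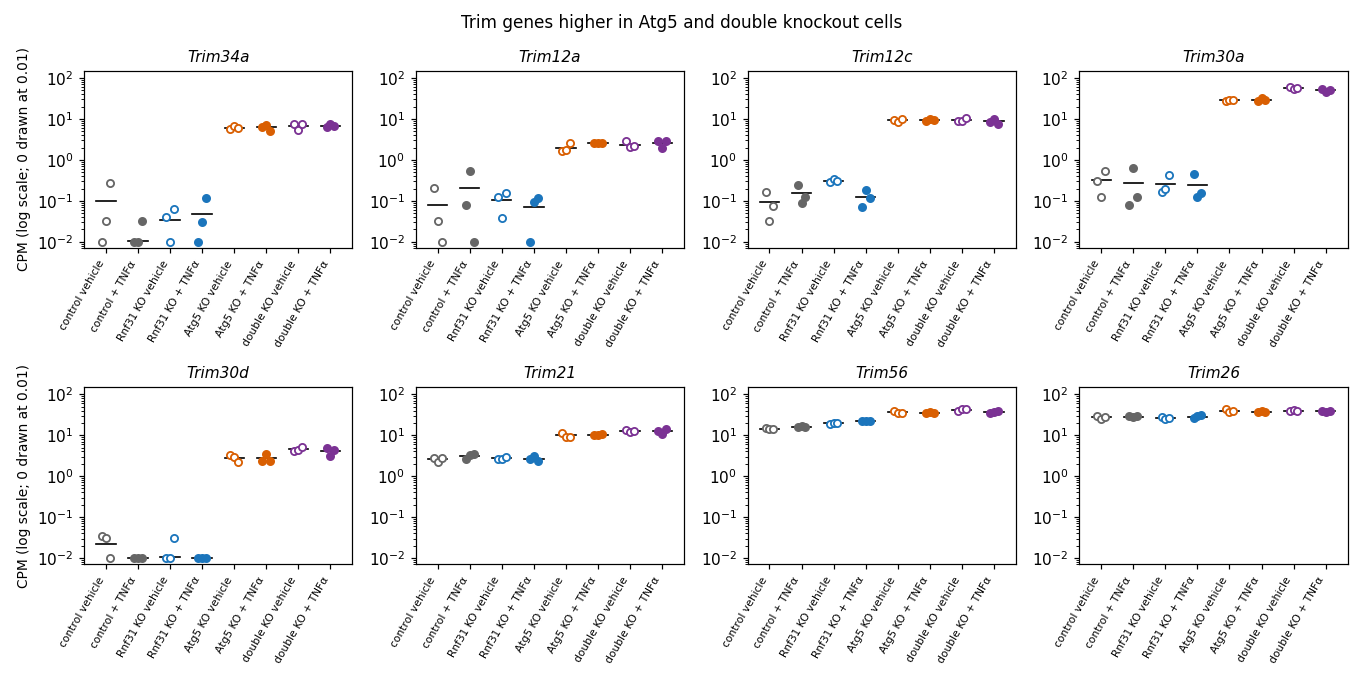
CPM in each library (points, open for vehicle and filled for TNFα) with group means (lines) on a log axis, for members higher in both Atg5 and double knockout cells; 0 is drawn at 0.01. Trim30a rises from under 1 CPM in every control and Rnf31 knockout library to between 27.5 and 60.1 CPM in the Atg5 and double knockouts.

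Outside that run, 3 more interferon-inducible members were higher in both the Atg5 and the double knockout. Trim21 stood at 2.73, 2.22 and 2.76 CPM in the control vehicle libraries, 2.62, 2.62 and 2.89 in Rnf31 knockout, 11.1, 9.28 and 9.11 in Atg5 knockout and 13.4, 12 and 13 in double knockout. Trim21 encodes a cytosolic antibody receptor. Every Atg5 and double knockout library of Trim21 lay above every control and Rnf31 knockout library. Its log2 difference from control was 1.94 ± 0.14 (SE; edgeR adjusted p = 1.48e-12) in Atg5 knockout and 2.32 ± 0.14 (SE; edgeR adjusted p = 6.86e-14) in double knockout cells. Trim56 stood at 15, 14.3 and 13.8 CPM in the control vehicle libraries, 19.1, 19.5 and 19.6 in Rnf31 knockout, 38.3, 34.9 and 34.5 in Atg5 knockout and 39.6, 43.7 and 43.2 in double knockout. Trim56, an antiviral ligase with no domain after its coiled coil, was stepwise higher, with no overlap between the control, Rnf31 knockout and Atg5 knockout groups or between Atg5 and double knockout. The log2 difference of Trim56 was 0.43 ± 0.06 (SE; edgeR adjusted p = 4.70e-06) in Rnf31 knockout, 1.32 ± 0.06 (SE; edgeR adjusted p = 1.24e-16) in Atg5 knockout and 1.55 ± 0.06 (SE; edgeR adjusted p = 6.16e-18) in double knockout cells. Corrected for transcript length, the Rnf31 knockout value of Trim56 was 0.14 with an edgeR adjusted p of 0.0892. Trim26 stood at 28.8, 25.5 and 28.2 CPM in the control vehicle libraries, 28.2, 25 and 26.2 in Rnf31 knockout, 42.6, 37.3 and 39.7 in Atg5 knockout and 38.9, 41.3 and 39.4 in double knockout. Trim26 differed from control by 0.54 ± 0.07 (SE; edgeR adjusted p = 7.21e-08) in Atg5 knockout and 0.54 ± 0.07 (SE; edgeR adjusted p = 1.30e-07) in double knockout cells, and its Rnf31 knockout libraries overlapped control. Together with Trim14 and Trim25 below, the interferon-inducible list held 10 members, of which 10 were higher in Atg5 knockout, 8 in double knockout and 2 in Rnf31 knockout cells, where 31.3%, 25.3% and 24.1% of all genes were higher. Of these 10, the 5 of the chromosome 7 run are members only through the groups in which they are high. Without them, 5 of 5 were higher in Atg5 knockout, 3 of 5 in double knockout and 1 of 5 in Rnf31 knockout cells. That list was drawn up with earlier results of these data known and is not independent evidence of its direction.

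Trim25, the ligase that ubiquitinates the RNA sensor RIG-I, was higher in Atg5 knockout cells than in both control and double knockout cells. Trim25 stood at 11.5, 10.4 and 12.2 CPM in the control vehicle libraries, 9.76, 10.4 and 8.86 in Rnf31 knockout, 62.6, 56.9 and 62.7 in Atg5 knockout and 8.72, 10.8 and 9.45 in double knockout. With TNFα, Trim25 stood at 11.2, 10.04 and 11.3 CPM in the control libraries, 11.4, 9.05 and 8.83 in Rnf31 knockout, 60.8, 59.7 and 60.2 in Atg5 knockout and 11.7, 8.17 and 8.71 in double knockout. All 6 Atg5 knockout libraries stood between 56.9 and 62.7 CPM, and the 18 others stayed between 8.17 and 12.2 CPM. Trim25, at chr11:88999376-89020293, was higher in Atg5 knockout than in control by 2.42 ± 0.10 (SE; edgeR adjusted p = 1.38e-17) on the log2 scale. In double knockout cells the difference from control was −0.23 ± 0.11 (SE; edgeR adjusted p = 0.0876), and double against Atg5 knockout gave −2.65 ± 0.10 (SE; edgeR adjusted p = 2.70e-17). Rnf31 knockout alone gave −0.23 ± 0.11 (SE; edgeR adjusted p = 0.0951). The departure of Trim25 from the sum of the 2 single knockouts was −2.42 ± 0.15 (SE; edgeR adjusted p = 1.78e-12). The 300-base window of Trim25 held none of the 3 motifs searched.

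In the double against Atg5 knockout comparison with vehicle, 11 members were higher and 7 lower, or 45% against 38.1% of all genes (18.2% higher, 19.8% lower). The 7 lower members were Trim3, Trim7, Trim14, Trim16, Trim25, Trim45 and Trim47. This comparison shares the 3 Atg5 knockout vehicle libraries, with the opposite sign, with that of Atg5 knockout against control, so nothing is read from the overlap of their calls, and the values of both are given side by side. Trim7 stood at 1.15, 1.21 and 0.957 CPM in the control vehicle libraries, 1.13, 1.14 and 0.839 in Rnf31 knockout, 8.32, 7.98 and 7.10 in Atg5 knockout and 2.63, 2.73 and 2.76 in double knockout. Trim7 encodes a ligase first found through the glycogen primer glycogenin. Its double knockout libraries lay between those of control and of Atg5 knockout without overlap. Trim7 differed from control by 2.81 ± 0.17 (SE; edgeR adjusted p = 3.48e-14) in Atg5 knockout and by 1.29 ± 0.18 (SE; edgeR adjusted p = 9.72e-07) in double knockout cells, and double against Atg5 knockout gave −1.53 ± 0.15 (SE; edgeR adjusted p = 4.84e-09). Exons of Trim7 overlap the gene models Gm12184 and Gm16170, and Gm12184 went from 6.95 CPM in control to 4.77 CPM in Atg5 knockout vehicle cells. With no stated strand setting, reads of overlapping genes cannot be told apart.

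Trim47 stood at 0.943, 0.857 and 1.11 CPM in the control vehicle libraries, 1.25, 1.48 and 0.777 in Rnf31 knockout, 3.85, 3.82 and 2.88 in Atg5 knockout and 1.08, 1.90 and 1.43 in double knockout. All Atg5 knockout libraries of Trim47 lay above the others. The log2 difference of Trim47 was 1.86 ± 0.28 (SE; edgeR adjusted p = 1.37e-06) against control and −1.26 ± 0.26 (SE; edgeR adjusted p = 3.79e-04) for double against Atg5 knockout. Trim47 overlaps Trim65 on the same strand. Trim16 stood at 0.674, 0.730 and 0.498 CPM in the control vehicle libraries, 0.766, 1.06 and 1.12 in Rnf31 knockout, 1.71, 2.04 and 1.94 in Atg5 knockout and 0.890, 0.898 and 0.859 in double knockout. Trim16, a ligase that acts with galectins in the autophagy of damaged membranes, was again separate from the rest in the Atg5 knockout. Its difference was 1.56 ± 0.36 (SE; edgeR adjusted p = 4.25e-04) from control and −1.10 ± 0.35 (SE; edgeR adjusted p = 0.013) for double against Atg5 knockout.

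Trim14 stood at 0.809, 0.952 and 0.995 CPM in the control vehicle libraries, 0.726, 1.33 and 0.933 in Rnf31 knockout, 2.02, 2.48 and 2.50 in Atg5 knockout and 0.853, 1.07 and 1.75 in double knockout. Trim14 acts as an adaptor of the antiviral protein MAVS. Its double knockout libraries ranged from the control level to nearly that of the Atg5 knockout. The log2 difference of Trim14 was 1.34 ± 0.28 (SE; edgeR adjusted p = 1.57e-04) in Atg5 knockout and 0.42 ± 0.29 (SE; edgeR adjusted p = 0.245) in double knockout cells against control. Double against Atg5 knockout gave −0.92 ± 0.27 (SE; edgeR adjusted p = 0.00846), and without double knockout vehicle replicate 1 it gave −0.72 (edgeR adjusted p = 0.06). The antisense neighbour of Trim14, Nans, stood at 122.5 CPM in control and 108.4 CPM in Atg5 knockout vehicle cells. Trim45 stood at 2.63, 3.02 and 2.72 CPM in the control vehicle libraries, 3.39, 2.92 and 2.74 in Rnf31 knockout, 5.11, 6.20 and 5.54 in Atg5 knockout and 3.97, 3.35 and 2.86 in double knockout. Trim45 differed by 1.01 ± 0.14 (SE; edgeR adjusted p = 4.88e-07) and −0.73 ± 0.14 (SE; edgeR adjusted p = 1.22e-04) for Atg5 knockout against control and for double against Atg5 knockout, without overlap between Atg5 knockout and any other vehicle group.

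**Figure D3:**
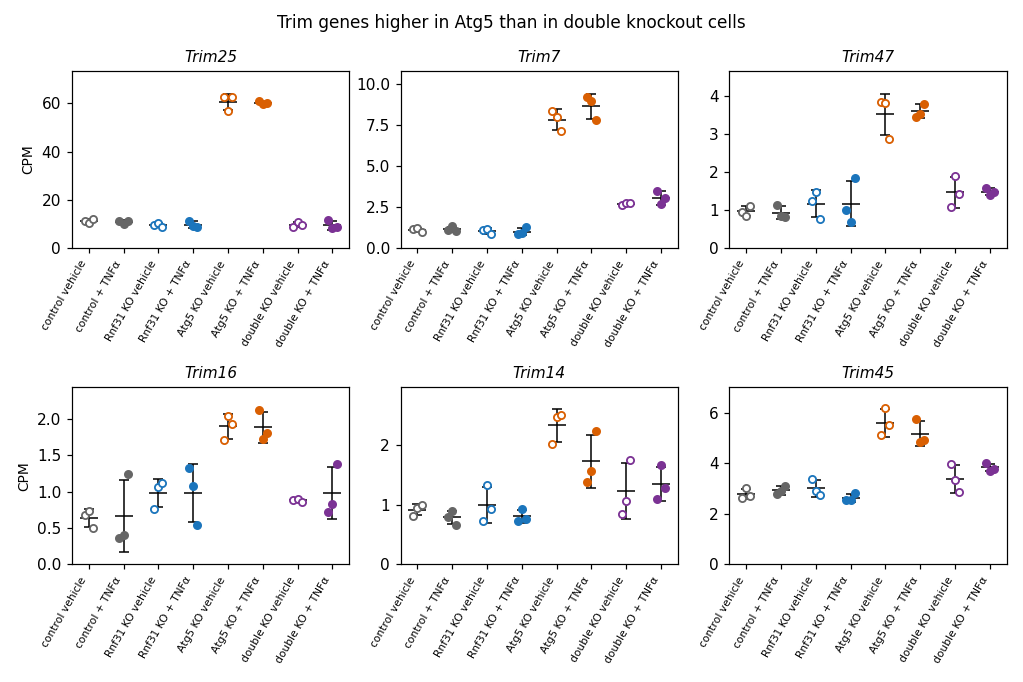
CPM in each library (points, open for vehicle and filled for TNFα) with mean ± SD (bars, n = 3) for 6 members that, with vehicle, were higher in Atg5 knockout than in control and lower in double than in Atg5 knockout cells. Trim25 stands between 56.9 and 62.7 CPM in the 6 Atg5 knockout libraries and at 12.2 CPM or less in the 18 others.

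The same 2 lines were compared in the TNFα libraries, which share no library with the vehicle comparison; this comparison was added after the data had been seen. Of the 40 members, 8 were higher and 7 lower in double than in Atg5 knockout cells, or 37.5% against 38.2% of all genes (18.8% higher, 19.4% lower). Of the 18 members called with vehicle, 13 were called in the same direction with TNFα (72.2% of the vehicle calls and 86.7% of the TNFα calls), and none in the opposite direction. The same agreement was not counted over all genes, so it is not read as a trait of the members. Trim25 gave −2.65 ± 0.11 (SE; edgeR adjusted p = 6.78e-17), Trim7 −1.49 ± 0.15 (SE; edgeR adjusted p = 1.06e-08) and Trim47 −1.27 ± 0.27 (SE; edgeR adjusted p = 4.95e-04). Trim62 was higher in the double knockout by 0.50 ± 0.10 (SE; edgeR adjusted p = 3.37e-04) with vehicle and by 1.02 ± 0.11 (SE; edgeR adjusted p = 3.38e-08) with TNFα.

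**Figure D4:**
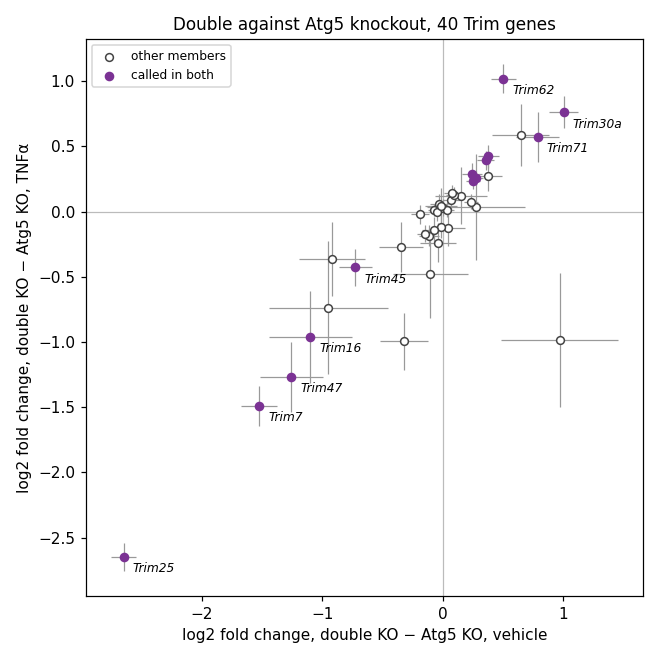
Log2 difference of double against Atg5 knockout for each member, with vehicle (x axis) and with TNFα (y axis); bars are SE and filled points were called in both. Trim25 lies at the lower left at −2.65 on both axes and Trim30a among the highest, at 1.004 with vehicle and 0.76 with TNFα.

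A departure from additivity, meaning that the double knockout differed from the sum of the single knockouts on the log2 scale, was called for 3 members upward and 11 downward with vehicle. That is 35% of the members against 40.7% of all genes (18.9% upward, 21.8% downward). The lowest among members of at least 2 CPM were Trim25, Trim12c at −1.67 ± 0.48 (SE; edgeR adjusted p = 0.00698) and Trim47 at −1.51 ± 0.40 (SE; edgeR adjusted p = 0.00356). The Trim12c value rests on few counts, 26 over the Rnf31 knockout and 8 over the control vehicle libraries. Without control vehicle replicate 2 it was −1.24 (edgeR adjusted p = 0.0739). The downward calls of Trim14 and Trim46 were lost without that library too. The 3 upward members were Trim71 at 1.15 ± 0.26 (SE; edgeR adjusted p = 7.07e-04), Trim63 at 0.58 ± 0.10 (SE; edgeR adjusted p = 3.42e-05) and Trim27 at 0.23 ± 0.08 (SE; edgeR adjusted p = 0.0238).

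By class, the 21 PRY-SPRY members held 16 of the 22 higher and 1 of the 6 lower calls in the Atg5 knockout, beside 31.3% of all genes higher and 30.7% lower. In double knockout cells 10 of the 21 were higher and 1 lower, beside 25.3% and 27.2% of all genes. In Rnf31 knockout cells 3 were higher and 0 lower, beside 24.1% and 21.5% of all genes. Without the 5 genes of the chromosome 7 run, the PRY-SPRY members had 11 of 16 higher and 1 lower in Atg5 knockout (median log2 difference 0.56), 5 higher and 1 lower in double knockout (0.41) and 2 higher and 0 lower in Rnf31 knockout cells (0.09). The higher calls were 68.8%, 31.2% and 12.5% of these 16 in that order, to be read against the shares of all genes above. Among the 3 bromodomain members none was higher and 1 lower in Atg5 knockout, and among the 4 NHL members 2 were higher and 1 lower. Of the 3 members with a fibronectin repeat, Trim46 was the 1 higher in Atg5 knockout, and 0 were called in the other knockouts.

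Of the 6 members lower in Atg5 knockout cells with vehicle, 4 were also lower in the double knockout, and these were abundant genes. Both comparisons use the same control vehicle libraries, and their overlap over all genes was not counted, so nothing is read from the overlap. Per kilobase of longest transcript, Trim28 led the family in all 8 groups, with 137.7 CPM per kb in control vehicle cells, followed by Trim35 at 40.1, Trim59 at 36.9, Trim63 at 23.8 and Trim27 at 21.1. Trim28 stood at 487, 397 and 456 CPM in the control vehicle libraries, 549.7, 551 and 578 in Rnf31 knockout, 315, 309 and 334 in Atg5 knockout and 371, 397 and 391 in double knockout. Trim28 (KAP1) is the corepressor that KRAB zinc finger proteins bring to retroelements. With vehicle, it was high in Rnf31 knockout cells and low in Atg5 knockout cells. Every double knockout vehicle library lay below the lowest control vehicle library, replicate 2. With TNFα, Trim28 was not called in Rnf31 knockout cells, at 162.6 CPM per kb against 149.4 in control. With vehicle, the log2 difference of Trim28 from control was 0.32 ± 0.06 (SE; edgeR adjusted p = 3.52e-05) in Rnf31 knockout, −0.49 ± 0.06 (SE; edgeR adjusted p = 2.17e-08) in Atg5 knockout and −0.21 ± 0.06 (SE; edgeR adjusted p = 0.00243) in double knockout cells. Without control vehicle replicate 2 these were 0.25, −0.56 and −0.29, with all 3 calls kept. Fitted on the compared groups alone, the double knockout value was −0.20 with an edgeR adjusted p of 0.0549.

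Trim27 stood at 96.3, 88.5 and 88.1 CPM in the control vehicle libraries, 88.5, 91.7 and 95.7 in Rnf31 knockout, 59.2, 57.1 and 61.7 in Atg5 knockout and 65.8, 70.7 and 74.8 in double knockout. Trim27 is a nuclear ligase also known as RFP. Atg5 knockout libraries of Trim27 were lowest, double knockout libraries came next, and neither overlapped control. Trim27 differed from control by −0.62 ± 0.06 (SE; edgeR adjusted p = 3.75e-10) and −0.37 ± 0.06 (SE; edgeR adjusted p = 4.63e-06) in these 2 genotypes. Trim59 stood at 101, 115 and 108 CPM in the control vehicle libraries, 101, 96.3 and 102 in Rnf31 knockout, 67.3, 82.7 and 73.3 in Atg5 knockout and 81, 72.2 and 84.4 in double knockout. Trim59, 1 of 2 members with a transmembrane helix, was lower in both without overlap with control, at log2 differences of −0.54 ± 0.06 (SE; edgeR adjusted p = 2.12e-08) and −0.45 ± 0.06 (SE; edgeR adjusted p = 8.12e-07). Trim13, the other one, stood at 6.30, 8.32 and 6.09 CPM in control, 6.85, 5.99 and 6.47 in Rnf31 knockout, 5.14, 6.74 and 5.69 in Atg5 knockout and 6.19, 4.28 and 6.62 in double knockout vehicle libraries, with overlapping groups and no call.

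Trim63 stood at 46.1, 43.4 and 45.3 CPM in the control vehicle libraries, 37.7, 38.2 and 39.3 in Rnf31 knockout, 30.7, 28.7 and 29.1 in Atg5 knockout and 37.1, 41 and 35.4 in double knockout. Trim63 is MuRF1, a ligase best known from muscle wasting, and it was the only member measured from its class. It was lowest in the Atg5 knockout, and every knockout library lay below every control library. The difference of Trim63 from control was −0.23 ± 0.07 (SE; edgeR adjusted p = 0.00856) in Rnf31 knockout, −0.61 ± 0.07 (SE; edgeR adjusted p = 1.97e-08) in Atg5 knockout and −0.25 ± 0.07 (SE; edgeR adjusted p = 0.00342) in double knockout cells. The Rnf31 knockout call of Trim63 was lost with the length correction. Trim27, Trim28, Trim59 and Trim63 were the 4 members lower than control in both the Atg5 and the double knockout with vehicle. With TNFα, Trim63 was not called in the double knockout.

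**Figure D5:**
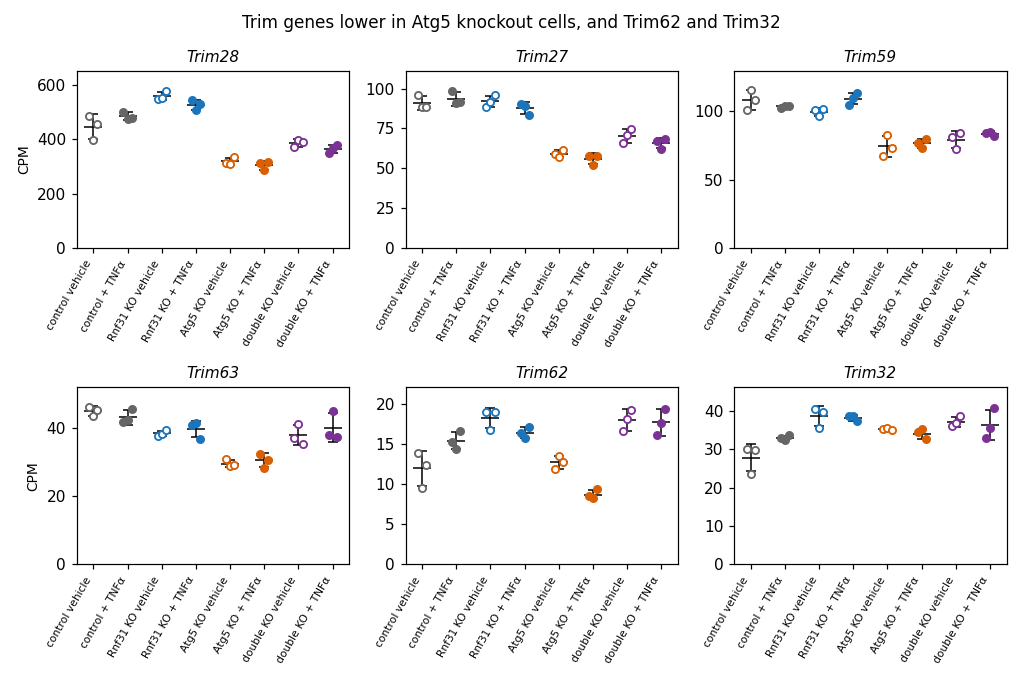
CPM in each library (points, open for vehicle and filled for TNFα) with mean ± SD (bars, n = 3) for Trim62, Trim32 and the 4 members lower in both Atg5 and double knockout cells with vehicle. Trim28 runs from 286 to 334 CPM in the Atg5 knockout libraries and from 397 to 501 CPM in the control libraries.

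Among the other chromatin members, Trim33 stood at 42.7, 36 and 35.9 CPM in the control vehicle libraries, 48.5, 48.4 and 52.5 in Rnf31 knockout, 43.3, 39.6 and 41 in Atg5 knockout and 41.9, 50.5 and 54.3 in double knockout. Trim33 (TIF1γ) acts in SMAD signalling, and Rnf31 knockout libraries were its highest group beside 2 of the double knockout libraries. It was 0.38 ± 0.08 (SE; edgeR adjusted p = 3.84e-04) above control in Rnf31 knockout and 0.36 ± 0.08 (SE; edgeR adjusted p = 6.26e-04) above it in double knockout cells, and both calls were lost with the length correction. Trim24 stood at 37.5, 35.1 and 38.5 CPM in the control vehicle libraries, 39.2, 38.7 and 39.4 in Rnf31 knockout, 34.9, 34.2 and 33.7 in Atg5 knockout and 32.8, 28.8 and 31.5 in double knockout. Trim24 (TIF1α), a nuclear receptor cofactor, was lower than control in double knockout cells, at −0.25 ± 0.07 (SE; edgeR adjusted p = 0.00183), without overlap. The Atg5 knockout gave −0.11 ± 0.06 (SE; edgeR adjusted p = 0.143) and double against Atg5 knockout −0.14 ± 0.07 (SE; edgeR adjusted p = 0.0861).

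For the NHL genes, Trim32 stood at 29.9, 23.6 and 29.8 CPM in the control vehicle libraries, 40.4, 35.6 and 39.6 in Rnf31 knockout, 35.2, 35.5 and 35 in Atg5 knockout and 35.9, 36.7 and 38.6 in double knockout. Trim32, a ligase mutated in a limb-girdle muscular dystrophy, was higher in all 3 knockouts with vehicle, without overlap with control. Its differences from control were 0.47 ± 0.08 (SE; edgeR adjusted p = 1.26e-05), 0.35 ± 0.08 (SE; edgeR adjusted p = 2.54e-04) and 0.42 ± 0.08 (SE; edgeR adjusted p = 3.59e-05) in Rnf31, Atg5 and double knockout cells, and 0.37, 0.24 and 0.31, all still called, without control vehicle replicate 2. With TNFα, Trim32 was called against control in neither the Atg5 nor the double knockout. It then stood at 10.3 CPM per kb in control, 10.7 in Atg5 knockout and 11.4 in double knockout. Trim2 stood at 22.5, 21.4 and 24 CPM in the control vehicle libraries, 24.4, 30.9 and 28 in Rnf31 knockout, 20.5, 22.7 and 22.3 in Atg5 knockout and 29.9, 27.5 and 27.9 in double knockout. Trim2, a neuronal ligase of neurofilament light chain, was higher where Rnf31 was targeted, by 0.30 ± 0.09 (SE; edgeR adjusted p = 0.00622) in Rnf31 knockout and 0.33 ± 0.09 (SE; edgeR adjusted p = 0.00227) in double knockout cells, and Atg5 knockout gave −0.05 ± 0.09 (SE; edgeR adjusted p = 0.642). Its Rnf31 knockout call was lost without Rnf31 knockout vehicle replicate 2 and, like its double knockout call, with the length correction.

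Trim3 stood at 21.5, 19.6 and 23.2 CPM in the control vehicle libraries, 24, 21.2 and 21.4 in Rnf31 knockout, 29, 30.8 and 30.4 in Atg5 knockout and 27.2, 26.5 and 25.3 in double knockout. Trim3 was higher in Atg5 knockout by 0.49 ± 0.07 (SE; edgeR adjusted p = 1.76e-06) and in double knockout by 0.30 ± 0.07 (SE; edgeR adjusted p = 0.00128), both without overlap with control. Trim71 stood at 2.49, 1.90 and 2.26 CPM in the control vehicle libraries, 1.77, 1.78 and 1.62 in Rnf31 knockout, 1.68, 1.47 and 1.78 in Atg5 knockout and 2.49, 3.11 and 2.94 in double knockout. Trim71 (LIN41), a target of the let-7 microRNA in stem cells, stood lower in Atg5 than in double knockout libraries without overlap, and double against Atg5 knockout gave 0.79 ± 0.18 (SE; edgeR adjusted p = 9.05e-04). Its difference from control in the Atg5 knockout was −0.43 ± 0.18 (SE; edgeR adjusted p = 0.0431), a call lost in 16 of the 32 alternative settings.

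Rnf31 knockout differences with vehicle reached over 2-fold for 1 called member, Trim12c. By summed counts Trim12c had 26 counts against 8 in control, a ratio of 3.40-fold (95% counting interval 1.5 to 8.70), and without control vehicle replicate 2 its fitted log2 difference was 1.28 (edgeR adjusted p = 0.0587). With TNFα, Trim12c had 11 counts in Rnf31 knockout against 12 in control, a ratio of 0.83-fold (95% counting interval 0.33 to 2.05). Trim62 stood at 13.9, 9.59 and 12.4 CPM in the control vehicle libraries, 19, 16.8 and 19 in Rnf31 knockout, 11.9, 13.5 and 12.7 in Atg5 knockout and 16.6, 18.2 and 19.3 in double knockout. Trim62, a PRY-SPRY ligase also called DEAR1, was higher in Rnf31 and double knockout libraries than in all control libraries with vehicle. It differed from control by 0.61 ± 0.10 (SE; edgeR adjusted p = 3.45e-05) in Rnf31 knockout and 0.59 ± 0.10 (SE; edgeR adjusted p = 2.88e-05) in double knockout cells, while Atg5 knockout gave 0.09 ± 0.11 (SE; edgeR adjusted p = 0.493). Without control vehicle replicate 2 the 2 called values of Trim62 were 0.47 and 0.45, both still called. The 2 lower members were Trim63, above, and Trim23, an ARF-domain ligase. Trim23 stood at 36.8, 43.6 and 39.9 CPM in the control vehicle libraries, 33.8, 33.4 and 31.6 in Rnf31 knockout, 32.6, 43.2 and 37.5 in Atg5 knockout and 39.7, 35.5 and 36.6 in double knockout. Trim23 was −0.29 ± 0.08 (SE; edgeR adjusted p = 0.00669) in Rnf31 knockout cells, and without control vehicle replicate 2 it was −0.22 (edgeR adjusted p = 0.0563). In the TNFα libraries, a comparison added after seeing the data, 6 members were higher and 0 lower in Rnf31 knockout than in control, or 15% against 32.3% of all genes (17.6% higher, 14.7% lower). Of the 13 members called with vehicle, 5 were called in the same direction there (38.5% of the vehicle calls and 83.3% of the TNFα calls). Trim8, Trim12c, Trim23, Trim28, Trim37, Trim41, Trim62 and Trim63 were called in Rnf31 knockout cells with vehicle only. How often all genes kept their vehicle call was not counted.

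The same added comparison kept most calls of the other genotypes. Atg5 knockout against control with TNFα called 20 members higher and 10 lower, or 75% against 58.9% of all genes (29.9% higher, 29% lower), and 25 of the 28 vehicle calls were among them in the same direction (89.3% of the vehicle calls and 83.3% of the TNFα calls). Double knockout against control with TNFα called 15 higher and 6 lower, or 52.5% against 45.7% of all genes (22.6% higher, 23.1% lower), with 16 of the 20 vehicle calls among them (80.0% and 76.2%). None was called in opposite directions. Calls made with vehicle only were those of Trim32, Trim44 and Trim46 in Atg5 knockout and of Trim32, Trim33, Trim62 and Trim63 in double knockout cells. Agreement between vehicle and TNFα calls was not counted over all genes, so nothing particular to the members is read from it.

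TNFα itself called no member within any genotype by edgeR's quasi-likelihood test. Among all genes, TNFα called 0.0961% in control, all higher, and 1.17% in Rnf31 knockout (0.902% higher, 0.266% lower). It called 0% in Atg5 knockout and 0.133% in double knockout cells (0.0665% higher, 0.0665% lower). At an unadjusted p under 0.05 there were 8, 5, 5 and 2 of the 40 members in that order, or 20%, 12.5%, 12.5% and 5% of them, against 21.8%, 11.9%, 13.1% and 8.83% of all genes. DESeq2 called 2 in control (Trim23 and Trim32), 0 in Rnf31 knockout, 1 in Atg5 knockout (Trim62) and 0 in double knockout cells. Single libraries moved these counts: without control vehicle replicate 1, edgeR called 5 members higher and 1 lower in control, and without control vehicle replicate 2 it called 1 lower, Trim62, in Atg5 knockout cells. Over the 23 members of at least 10 CPM in some group, the log2 response ran from −0.28 (Trim30a) to 0.37 (Trim62) in control and from −0.55 (Trim62) to 0.19 (Trim23) in Atg5 knockout cells. For Trim25 the response was −0.05 ± 0.11 (SE) in control, 0.02 ± 0.11 in Rnf31 knockout, −0.01 ± 0.09 in Atg5 knockout and −0.01 ± 0.12 in double knockout cells. A response of Trim25 to TNFα was not detectable at this depth in any genotype.

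The TNFα response was also compared between each knockout and control by an interaction term. In Atg5 knockout relative to control cells, 1 member responded higher and 3 lower, or 10% against 11.4% of all genes (4.94% higher, 6.42% lower). Trim62 stood at 15.3, 14.5 and 16.6 CPM in the control TNFα libraries, 16.4, 15.7 and 17.1 in Rnf31 knockout, 8.47, 8.30 and 9.38 in Atg5 knockout and 16.1, 17.6 and 19.4 in double knockout. Set beside its vehicle values, Trim62 was higher with TNFα than with vehicle in all control libraries and lower in all Atg5 knockout libraries, and neither pair of groups overlapped. The response of Trim62 was 0.37 ± 0.11 (SE; edgeR adjusted p = 0.092) in control and −0.55 ± 0.11 (SE; edgeR adjusted p = 0.123) in Atg5 knockout cells, and the difference between the 2 responses was −0.92 ± 0.15 (SE; edgeR adjusted p = 0.00232). That difference was called in every one of the 32 alternative settings. Against the same control libraries, the Trim62 response difference was −0.53 ± 0.15 (SE) in Rnf31 knockout and −0.40 ± 0.15 in double knockout cells, neither called. Trim41 stood at 23.5, 19.2 and 21.4 CPM in the control vehicle libraries, 27.5, 30.5 and 27.4 in Rnf31 knockout, 31.3, 31.5 and 33.5 in Atg5 knockout and 31.8, 30.3 and 32.1 in double knockout. With TNFα, Trim41 stood at 26.6, 26.4 and 21.9 CPM in the control libraries, 29.5, 28 and 26.5 in Rnf31 knockout, 30.1, 28.8 and 29.5 in Atg5 knockout and 30.9, 29.8 and 31.4 in double knockout. Trim41, a PRY-SPRY ligase, was also higher in Atg5 knockout than in control with vehicle, by 0.59 ± 0.07 (SE; edgeR adjusted p = 9.61e-08). Its exons overlap Rack1 on the other strand, which stood at 2121 CPM in control and 1725 CPM in Atg5 knockout vehicle cells. Differences in response of −0.37 ± 0.12 (SE) for Trim33, −0.35 ± 0.11 for Trim41 and 0.44 ± 0.12 for Trim23 were called as well, and each lost its call without control vehicle replicate 2 and in other settings. For the Rnf31 knockout and the double knockout, 0 members differed in response by edgeR (0.00739% of all genes were called for the former, and 1.15% for the latter, 0.384% higher and 0.769% lower), with 9 and 10 members at an unadjusted p under 0.05 (22.5% and 25% of members against 12.1% and 20.8% of all genes) and 0 and 2 called by DESeq2 (Trim23 and Trim56). Without control vehicle replicate 1, edgeR called 1 higher and 6 lower for the double knockout and 7 lower for the Atg5 knockout, and without control vehicle replicate 2, 0 lower and 1 lower in that order.

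Genes that work with the family were counted from lists chosen with earlier results known. Among all genes, 31.3% were higher and 30.7% lower in Atg5 knockout, 25.3% and 27.2% in double knockout, and 24.1% and 21.5% in Rnf31 knockout cells, and each count is to be read against these shares. Of 15 interferon signalling factors tested, 9 were higher and 1 lower in both the Atg5 and the double knockout, with 3 higher and 1 lower in Rnf31 knockout. Irf9 differed from control by 2.70 ± 0.08 (SE, log2; edgeR adjusted p = 3.17e-20) in Atg5 knockout and 3.34 ± 0.08 (edgeR adjusted p = 2.35e-22) in double knockout cells. Irf9 is a transcription factor of the interferon response. Irf1, another one, differed from control by 1.96 ± 0.08 (SE, log2; edgeR adjusted p = 9.21e-18) in Atg5 knockout and 1.18 ± 0.08 (edgeR adjusted p = 1.99e-12) in double knockout cells, and double against Atg5 knockout gave −0.78 ± 0.07 (edgeR adjusted p = 2.59e-09). Of 13 sensors and adaptors, 10 were higher and 2 lower in Atg5 knockout, 9 higher and 0 lower in double knockout, and 4 higher and 2 lower in Rnf31 knockout cells. Ddx58, the gene of RIG-I, differed by 3.86 ± 0.11 (edgeR adjusted p = 4.73e-21) in Atg5 knockout and 4.48 ± 0.11 (edgeR adjusted p = 1.73e-22) in double knockout cells. Isg15, a ubiquitin-like modifier, differed by 3.20 ± 0.11 (edgeR adjusted p = 1.94e-19) and 4.39 ± 0.11 (edgeR adjusted p = 1.81e-22).

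Of the 14 ubiquitin-activating and E2 enzymes, set against the same shares of all genes, 3 were higher and 9 lower in Atg5 knockout, 1 higher and 9 lower in double knockout, and 2 higher and 9 lower in Rnf31 knockout cells. Ube2l6, the E2 of Isg15, was higher by 1.78 ± 0.09 (SE, log2; edgeR adjusted p = 6.05e-16) in Atg5 knockout and 1.77 ± 0.09 (edgeR adjusted p = 1.82e-15) in double knockout cells. Ube2d3, a general E2 of RING ligases, was lower, at −0.51 ± 0.05 (edgeR adjusted p = 5.47e-09) in Atg5 knockout cells. Of 11 partners of Trim28 in gene repression, 3 were higher and 6 lower in Atg5 knockout, 3 higher and 3 lower in double knockout, and 6 higher and 2 lower in Rnf31 knockout cells. Chd3, a nucleosome remodeller, was higher by 0.79 ± 0.10 (edgeR adjusted p = 1.12e-07) in Atg5 knockout cells with vehicle, where Trim28 was lower. In Rnf31 knockout cells with vehicle, where Trim28 was higher, Chd3 was higher by 0.91 ± 0.10 (edgeR adjusted p = 1.15e-07).

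The other members called with vehicle in the Atg5 knockout, Trim8, Trim11, Trim39, Trim44, Trim46 and Trim68, differed from control by −0.14 (Trim8) to 0.72 (Trim68) on the log2 scale. The calls of Trim8, Trim39, Trim44 and Trim46 were lost in at least 1 alternative setting, and those of Trim39 and Trim44 without control vehicle replicate 2. Trim8, a ligase with no further domain, was higher in Rnf31 knockout by 0.23 ± 0.06 (SE; edgeR adjusted p = 0.00183), and Trim37, a peroxisomal ligase with a MATH domain, was higher there by 0.16 ± 0.06 (SE; edgeR adjusted p = 0.0216), a call lost in 6 settings, among them without control vehicle replicate 2. With vehicle, 6 members were called in no knockout: Trim10, Trim13, Trim35, Trim36, Trim65 and Trim67. Trim35 was the second most abundant member per kilobase in all 8 groups. Trim10 and Trim67 were near the level limit, where only large differences could be detected.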

How the data were processed

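RNA from 24 cultures of B16F10 cells was sequenced, and the deposited table was taken to hold expected counts per gene, since the notes name RSEM and the table itself states no unit. The submitters' processing notes list the build GRCm38 (mm10) and, without versions, RSEM, STAR and DESeq2; the annotation and the strand setting of the counting are not stated in them. All deposited expected counts were whole, so rounding changed 0 values. A row without a gene name (0.14% of counts on average) was left out. Library totals, from 19425795 to 33385502 counts, limit precision for members under 1 CPM. Membership used counts per 1000000 counts of named genes, and levels in the text are CPM on effective library sizes (trimmed mean of M values). Comparisons used edgeR 4.0.16 in R 4.3.3 (quasi-likelihood test, filterByExpr, 8 group means, 24 libraries), with Benjamini-Hochberg adjustment over 13527 genes and a threshold of 0.05. SE is the log2 difference divided by the square root of F. Where a group held few counts, ratios are of summed counts with exact 95% binomial intervals. A floor of 3 counts was used only where the control group held 0. Alternatives were DESeq2 1.42.0, other size factors, filters, a robust spread, only the compared groups, a replicate block, each library left out, a limit of 1 CPM for members and, added after seeing the data, a length correction, the knockout comparisons in TNFα libraries, counts without the 5 members that pass the level limit only through Atg5 and double knockout libraries, and ratios of summed counts without 1 control library. On data simulated for Atg5 knockout against control, 94 of 100 genes changed 1.5-fold and 100 of 100 changed 2-fold were recovered with 6 false calls among 12932 genes. For the difference in TNFα response between them, 77 and 96 of 100 were recovered with 15 false calls among 12953 genes. The simulation gave every gene the same spread (biological coefficient of variation 6.17%) and changed only genes of at least 1 CPM in control vehicle. It held no library that stood apart. All other genes were left unchanged, whereas 62% of all genes were called in the real Atg5 knockout comparison with vehicle. Its recovery and false calls therefore do not carry over to members rarer than 1 CPM or to more variable genes. Nor do they carry over to the real control vehicle group or to a comparison with that many calls.

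Members and gene lists were chosen with earlier results of these data known. Members named are the interferon-inducible list, the classes with bromodomain, NHL repeats or a transmembrane helix, the 3 highest and 3 lowest called members of at least 2 CPM per comparison, and those beside the level limit; list genes are the 3 with the smallest adjusted p, or fewer, and 1 of these is not reported here. Trim8, Trim11, Trim16, Trim37, Trim39, Trim44, Trim45, Trim46, Trim68 and Irf1 were named after their values were seen. Coordinates are from GENCODE M21 and promoter windows from RefSeq. For 9 members no window was given.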

Additional observations from a re-analysis of the deposited data

Results flagged for a closer look

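Results stood out under 1 criterion, a TNFα response that differed between Atg5 knockout and control cells by a test of the difference itself. Trim62 responded lower in Atg5 knockout cells, with a difference of −0.92 on the log2 scale (edgeR adjusted p = 0.00232). The 2 genotypes had opposite directions, and neither response was called on its own. The difference was −0.37 for Trim33 (edgeR adjusted p = 0.0452) and −0.35 for Trim41 (edgeR adjusted p = 0.0369). For Trim23 it was 0.44 (edgeR adjusted p = 0.0221). All 4 use the control vehicle group, which holds the library that stood apart. Without that library Trim62 stayed past the threshold, and the adjusted p was 0.0811 for Trim23, 0.14 for Trim33 and 0.149 for Trim41. The Rnf31 and double knockouts, set against the same control libraries, had differences of the same sign, none called. In that order these were −0.53 and −0.40 for Trim62 and −0.15 and −0.32 for Trim33. For Trim41 they were −0.25 and −0.26, and for Trim23 0.25 and 0.35. No test for 1 outlying value was run within the groups, which hold only 3 libraries each. The library that stood apart was found by its counts and its trend with transcript length.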

How the results depend on the processing

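Of 169 calls of members over all comparisons, 124 held their side of the threshold in every alternative, 45 lost it in at least 1, and 0 changed direction. The losses in knockouts with vehicle that bear on named members are given beside them; the cause was not tested. Members at a mean of 1 CPM and other size factors moved no count by over 1.5 times.

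Counts of the TNFα response moved most. Over all genes, the response in control called 13, and 94 without a filter, 117 with a filter at a mean of 1 CPM, 68 with a robust spread, 687 with DESeq2 and 0 with only the compared groups or with the length correction. The response in Rnf31 knockout called 158, and 251 with DESeq2 and 331 with only the compared groups. In Atg5 knockout it called 0, and 70 with DESeq2 and 28 with only the compared groups, and in double knockout 18, and 69 and 8 in that order. The response difference called 1 gene for Rnf31 knockout, and 3 with a robust spread, 56 with DESeq2 and 14 with the length correction. For Atg5 knockout it called 1536, and 2337 with DESeq2, 504 with only the compared groups and 231 with the length correction. For double knockout it called 156, and 815 with DESeq2, 5 with only the compared groups and 4 with the length correction.

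Among members, DESeq2 called 1 higher and 1 lower for the TNFα response in control and 1 lower in Atg5 knockout, where only the compared groups also gave 1 lower, all in place of 0. Rnf31 knockout against control called 7 higher in place of 11 with vehicle and 3 higher and 2 lower in place of 6 and 0 with TNFα under the length correction, for which 98.7% of tested genes had a length. Departure from additivity called 5 upward in place of 3 without a filter, with the 1 CPM filter, with DESeq2 and with the length correction. The response difference of Atg5 knockout called 6 lower with DESeq2 and 1 lower with only the compared groups or the length correction, in place of 3. That of double knockout called 1 lower with the 1 CPM filter and 1 higher and 1 lower with DESeq2, in place of 0.

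Leaving out 1 library at a time, the members called for the TNFα response ranged from 0 to 5 higher and 0 to 1 lower in control and 0 to 1 lower in Atg5 knockout. All genes called ranged from 0 to 2200 in control, 72 to 226 in Rnf31 knockout, 0 to 84 in Atg5 knockout and 0 to 58 in double knockout. For the response difference, members ranged from 0 to 1 lower for Rnf31 knockout, 0 to 1 higher and 1 to 7 lower for Atg5 knockout, and 0 to 1 higher and 0 to 6 lower for double knockout, and all genes from 0 to 113, 293 to 3155 and 13 to 1773. Rnf31 knockout against control ranged from 1 to 3 lower with vehicle and 3 to 7 higher with TNFα, departure from additivity from 3 to 5 upward, and double against Atg5 knockout with TNFα from 4 to 7 lower. In control, the highest values came without control vehicle replicate 1.

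Replicate numbers are shared by the groups, and over 84 same-numbered pairs the correlation of deviations ran from −0.228 to 0.194, with 11 over 0.1, so the numbers were not taken to pair the libraries. A replicate block gave 182 genes in place of 13 for the TNFα response in control, 34 in place of 18 in double knockout, and 11 in place of 1 and 533 in place of 156 for the response difference of Rnf31 and double knockout. Among members the block gave 5 lower in place of 3 for the response difference of Atg5 knockout and 1 lower in place of 0 for double knockout, and no other count of members moved by over 1.5 times.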

Other observations

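Of 6 relatives of the family without a Trim symbol, 3 were higher and 1 lower in Atg5 knockout, 2 higher and 1 lower in double knockout, and 2 higher and 0 lower in Rnf31 knockout cells with vehicle. Among all genes, 31.3% were higher and 30.7% lower, 25.3% and 27.2%, and 24.1% and 21.5% in that order. Pml, the tripartite motif gene that organises nuclear bodies, was higher by 0.52 ± 0.08 (SE, log2; edgeR adjusted p = 2.12e-06) in Atg5 knockout and 0.80 ± 0.08 (edgeR adjusted p = 2.24e-09) in double knockout cells. Rnf135, a further ligase of RIG-I, was higher by 0.58 ± 0.10 (edgeR adjusted p = 8.11e-06) and 0.59 ± 0.10 (edgeR adjusted p = 8.93e-06). Mid1, a microtubule-bound ligase mutated in Opitz syndrome, was lower, at −1.16 ± 0.12 (edgeR adjusted p = 1.52e-09) and −0.41 ± 0.11 (edgeR adjusted p = 2.76e-03).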
